A study of Mus musculus with 6 samples.

Results

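Endothelial cells line blood and lymphatic vessels, and 36 genes that mark their identity were followed here in mouse mammary tumors, out of 54146 genes in the deposited counts. The 36 were a given list of symbols, matched to Ensembl identifiers, and each was kept whatever its change. The injected cells were 4T1, an established line from a mouse mammary carcinoma. They were either wild type or Mki67-/-, a knockout of the gene that encodes Ki-67, a nuclear protein of dividing cells. Nude mice, whose missing thymus leaves them with few T cells, received the cells in a mammary fat pad, and tumors were harvested 3 weeks later. There were 3 libraries of each genotype, and each was made from pieces of whole tumor. The labels number the libraries but do not say that each came from a different mouse, so the p-values measure the spread between these libraries. The age of the mice and the number of knockout clones are not given in the sources used here, so a difference between clones cannot be told apart from the knockout in any result. The labels name the knockout in the injected cells, not in the host, and the endothelium of a transplanted tumor comes from the host as a rule.

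Endothelial cells are held together by junctions of VE-cadherin (Cdh5), claudin-5 (Cldn5) and Pecam1, and their identity rests on ETS and SoxF transcription factors with partners such as Tal1. Lymphatic endothelium branches off under the factor Prox1. Several of these genes are also used by blood cells, among them Fli1, Tal1, Cd93, Pecam1, S1pr1 and Icam2, and Lyve1 is carried by some tissue macrophages as well as by lymphatic vessels.

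Of the 36 genes, 9 passed the test between the genotypes and 27 did not. Emcn, Mmrn2, Nos3, Prox1 and Mmrn1 rose in the knockout tumors, and Cd93, Fli1, Tal1 and Lyve1 fell. That share lay below the one over all genes. Past an adjusted p of 0.05 in edgeR lay 25% of the endothelial genes and 36% of all 19900 genes tested, with 17.6% of all genes higher and 18.4% lower. All 36 passed the filter on low counts. Their median log2 fold change (knockout over wild type) was 0.10, beside 0.05 for all genes tested, and 6 of the 36 differed by 2-fold or more, beside 19.2% of all genes. In 13 of the 36 the wild-type and knockout values stayed clear of each other, as they did in 50.5% of all genes. With library totals in place of TMM scaling, the split of 5 higher and 4 lower became 8 and 4. No member was called higher in edgeR without wild-type replicate 1 (4 were higher and had an unadjusted p under 0.05), and the number was 3 when wild-type replicate 2 was left out and 2 when replicate 3 of either genotype was.

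Depth ran from 22081970 to 38399826 counted read pairs per library, with all 3 knockout libraries below all 3 wild-type libraries. The share of pairs left unmapped was 54.6% in knockout replicate 2, 52.7% in knockout replicate 3 and 30.8% to 33.9% elsewhere. Knockout replicate 2 stood apart from the other knockout libraries on the second principal component, which carried 21.3% of the variance. Mki67 itself was at 359.6, 395 and 325 CPM (counts scaled to library size) in the wild-type libraries and at 98.7, 117 and 139 CPM in the knockout libraries, a log2 fold change of -1.61 (SE 0.14) in the direction of the labels. Counts of Mki67 thus remained in each knockout library, from a source that was not tested. The tissue label was met by the epithelial genes Krt8, Krt18, Epcam and Cdh1, which were counted in every library at a summed 2692 to 4591 CPM.

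Promoter sequences from RefSeq (GRCm38.p6, 250 bases before to 50 after a start site) were at hand for 17 of the 36 genes. They are shown for 5 of these because they represent the 3 outcomes: Emcn and Mmrn1 rose, Tal1 fell, and Cldn5 and Robo4 did not pass. They are given 5′ to 3′, with the first start site in the table for Tal1. The windows are Emcn, chr3:137340828-137341127, plus strand; Mmrn1, chr6:60944067-60944366, plus strand; Tal1, chr4:115056176-115056475, plus strand; Cldn5, chr16:18776597-18776896, plus strand; and Robo4, chr9:37401722-37402021, plus strand. Capitals mark the letters CGGAAG or AGGAAG on either strand, a core to which ETS factors such as Erg and Fli1 bind.
Emcn: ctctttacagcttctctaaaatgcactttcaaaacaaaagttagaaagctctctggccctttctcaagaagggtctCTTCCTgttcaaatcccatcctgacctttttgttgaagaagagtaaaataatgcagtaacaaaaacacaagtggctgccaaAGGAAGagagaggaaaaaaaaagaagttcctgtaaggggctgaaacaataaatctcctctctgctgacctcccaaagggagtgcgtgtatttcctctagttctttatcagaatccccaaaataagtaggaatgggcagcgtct
Mmrn1: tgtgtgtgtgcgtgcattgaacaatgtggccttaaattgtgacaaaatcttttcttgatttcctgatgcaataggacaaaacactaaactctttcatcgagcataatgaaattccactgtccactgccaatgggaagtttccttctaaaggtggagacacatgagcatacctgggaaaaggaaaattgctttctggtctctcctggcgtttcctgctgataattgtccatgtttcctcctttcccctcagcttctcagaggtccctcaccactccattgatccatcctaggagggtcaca
Tal1: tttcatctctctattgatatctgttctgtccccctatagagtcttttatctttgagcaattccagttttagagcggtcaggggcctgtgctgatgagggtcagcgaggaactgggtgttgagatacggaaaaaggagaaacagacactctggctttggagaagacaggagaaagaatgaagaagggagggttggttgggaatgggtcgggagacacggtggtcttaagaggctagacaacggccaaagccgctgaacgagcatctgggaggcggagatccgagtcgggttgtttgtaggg
Cldn5: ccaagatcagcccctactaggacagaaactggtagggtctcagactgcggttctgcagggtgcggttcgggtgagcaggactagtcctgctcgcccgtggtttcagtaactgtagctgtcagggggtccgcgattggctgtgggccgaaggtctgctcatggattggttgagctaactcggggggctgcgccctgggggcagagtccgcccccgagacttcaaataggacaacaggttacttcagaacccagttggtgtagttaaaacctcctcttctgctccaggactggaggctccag
Robo4: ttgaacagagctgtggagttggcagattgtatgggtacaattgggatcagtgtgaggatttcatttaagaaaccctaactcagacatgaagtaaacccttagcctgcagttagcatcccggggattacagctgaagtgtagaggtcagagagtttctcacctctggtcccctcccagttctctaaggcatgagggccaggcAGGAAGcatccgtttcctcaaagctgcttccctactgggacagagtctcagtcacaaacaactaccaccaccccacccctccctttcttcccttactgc
The Emcn window held 2 such stretches and the Robo4 window 1, while those of Mmrn1, Tal1 and Cldn5 held none. Over the 23 windows of the 17 genes, 12 (52.2%) held at least 1, beside 46.5% of all 32851 RefSeq windows of the same length. A match is a match of letters only, and binding to these windows was not measured.

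**Figure D1:**
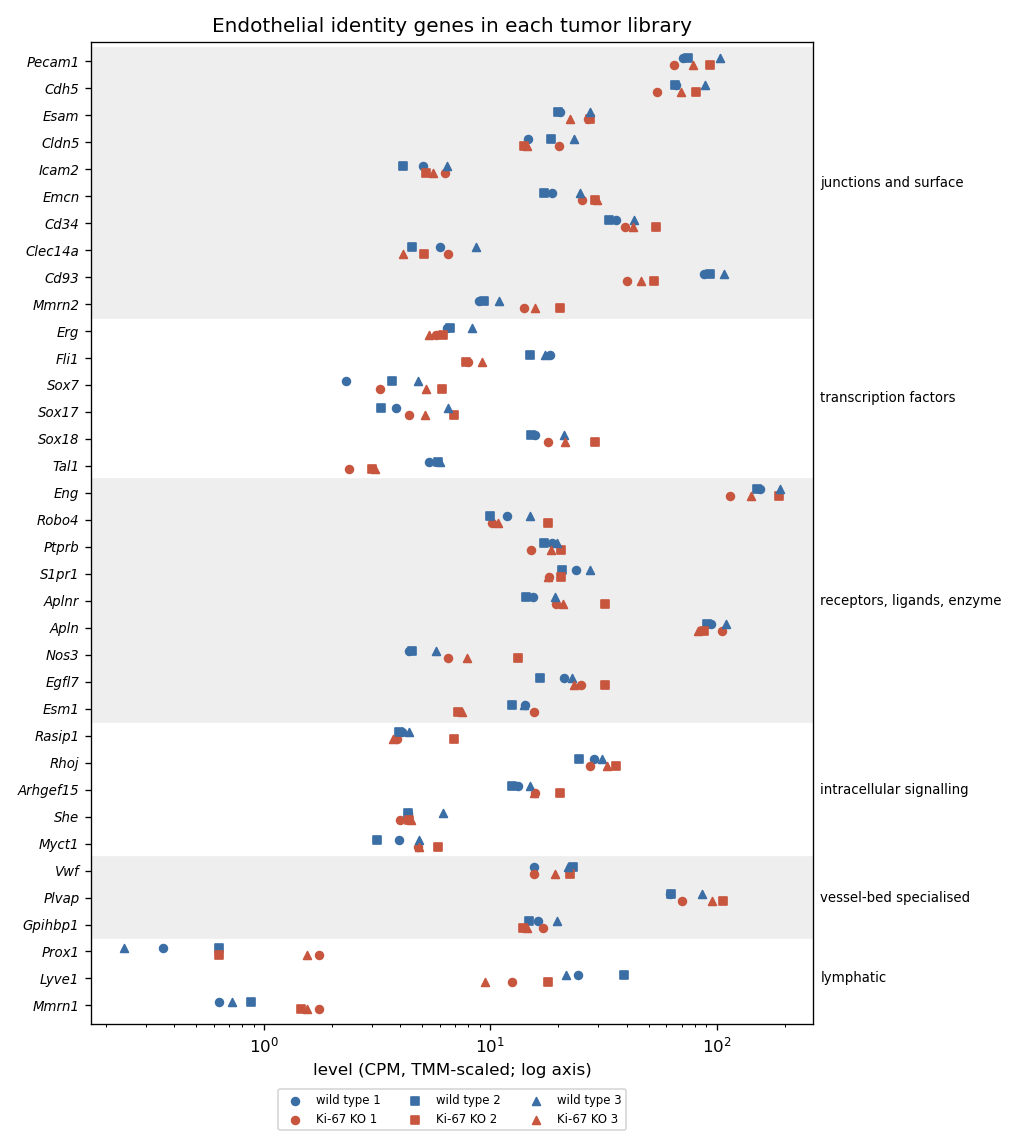
Level of each of the 36 endothelial genes (CPM on a log axis) in the 3 wild-type (blue) and 3 knockout (red) tumor libraries, with a marker shape for each replicate and genes ordered by role. Most genes overlap between the groups, while Cd93, Fli1 and Tal1 lie lower and Mmrn2 and Mmrn1 higher in each knockout library.

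Of the 10 junction, surface and matrix genes 2 rose and 1 fell (30% called, beside 36% of all genes tested). None of those 3 builds the junction itself. Pecam1, an adhesion receptor at cell contacts that leukocytes and platelets also carry, was at 71.1, 74.5 and 103 CPM in the wild-type libraries and at 65.0, 93.0 and 78.7 CPM in the knockout libraries. Cdh5, the adherens junction cadherin of endothelium, was at 66.0, 65.7 and 88.6 CPM in the wild-type group and 54.5, 81.1 and 69.8 CPM in the knockout group. In both genes the groups overlapped, wild-type replicate 3 was the highest of its group and knockout replicate 2 the highest of the other. The log2 fold change of Pecam1 was -0.07 (95% interval -0.47 to 0.32, adjusted p = 0.762) and that of Cdh5 was -0.10 (95% interval -0.49 to 0.28, adjusted p = 0.655), so the intervals left out a log2 difference of 1 in size without showing that the levels were equal. With only the 4 libraries of under 40% unmapped pairs, which leaves 1 knockout library, Cdh5 was called lower (log2 fold change -0.50, adjusted p = 0.037). In bulk tissue, fewer cells of a type and less RNA per cell cannot be told apart.

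Esam, an immunoglobulin-family adhesion molecule of tight junctions, was at 20.3, 19.9 and 27.6 CPM in the wild-type group and 27.1, 27.6 and 22.5 CPM in the knockout group (log2 fold change 0.19, adjusted p = 0.361). Cldn5, which forms tight junction strands, was at 14.6, 18.5 and 23.4 CPM in the wild-type group and 20.01, 14.1 and 14.5 CPM in the knockout group (log2 fold change -0.21, adjusted p = 0.423). The groups overlapped in both. Icam2, an adhesion ligand for leukocytes, lay between 4.10 and 6.44 CPM in all 6 libraries, and the sialomucin gene Cd34 between 33.6 and 54.2 CPM. Neither passed the test (adjusted p = 0.621 and 0.163).

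Emcn, which encodes the sialomucin endomucin (chromosome 3, 137341067 to 137432185, plus strand, GRCm38), was at 18.8, 17.2 and 24.9 CPM in the wild-type libraries and at 25.3, 29.0 and 29.6 CPM in the knockout libraries. The lowest knockout library lay just above wild-type replicate 3. It rose 1.38-fold, a log2 change of 0.46 (SE 0.15, adjusted p = 0.0416), and this call was lost in 9 of 18 alternatives. The adjusted p was 0.189 without wild-type replicate 1, 0.193 without wild-type replicate 2, 0.076 without knockout replicate 2 and 0.131 without knockout replicate 3.

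Cd93 and Clec14a are related receptors with a C-type lectin domain, and both bind multimerin 2, a matrix protein of the vessel wall encoded by Mmrn2. Cd93 (chromosome 2, 148436640 to 148443563, minus strand) was at 87.9, 93.4 and 107 CPM in the wild-type group and at 40.3, 53.0 and 46.4 CPM in the knockout group, so the highest knockout value was under the lowest wild-type value. It fell 2.06-fold (log2 fold change -1.05, SE 0.12, adjusted p = 0.0004) and was called in each of the 18 alternatives. Mmrn2 (chromosome 14, 34375465 to 34404287, plus strand) moved the other way, from 8.92, 9.35 and 10.9 CPM to 14.2, 20.2 and 15.7 CPM, again with no overlap. Its rise was 1.72-fold (log2 fold change 0.78, SE 0.16, adjusted p = 0.00659), and the only one of the 18 alternatives to lose the call left out wild-type replicate 1 (adjusted p = 0.0527). Clec14a was at 6.02, 4.53 and 8.66 CPM in the wild-type group and 6.51, 5.10 and 4.13 CPM in the knockout group, with overlap (log2 fold change -0.28, 95% interval -0.88 to 0.32). The receptor and its matrix ligand thus differed in direction, while the second receptor gave no call.

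**Figure D2:**
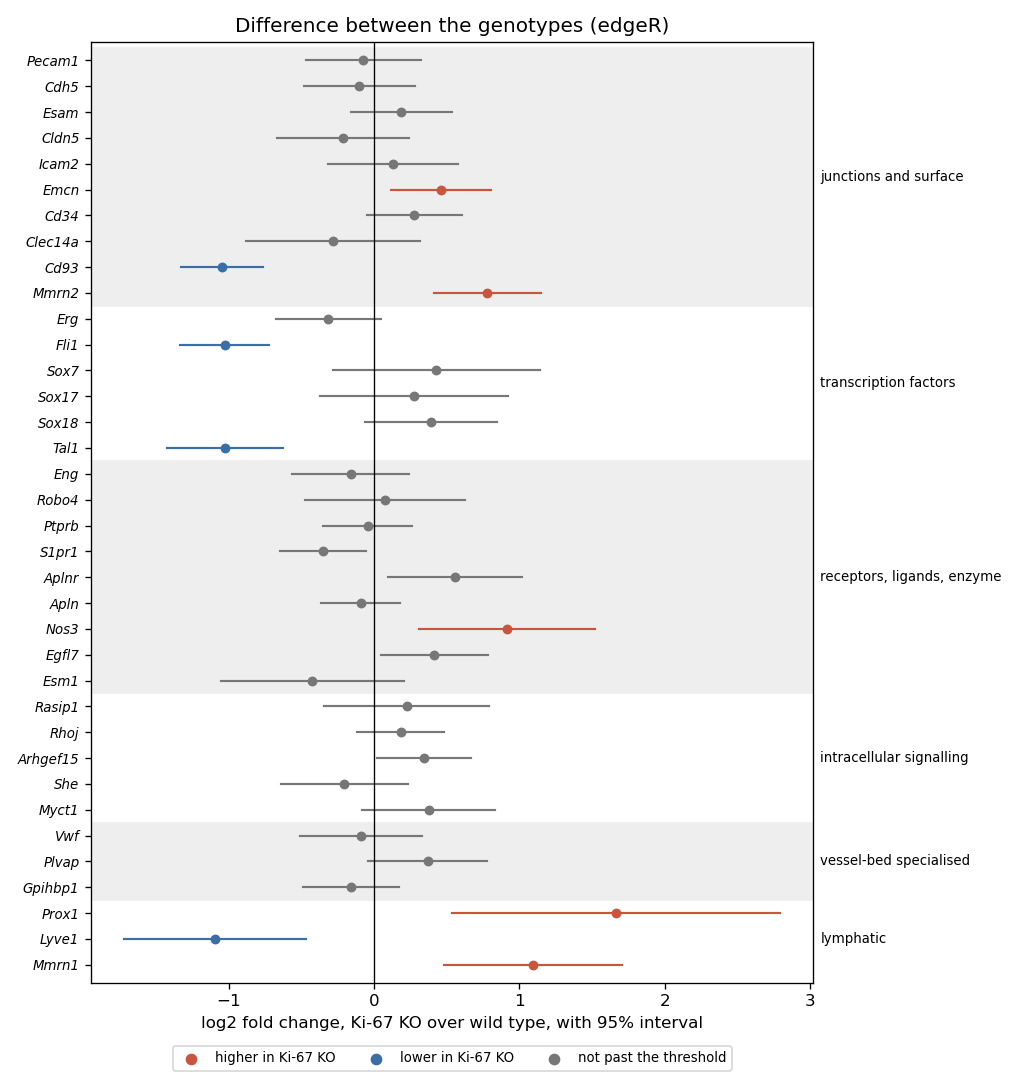
Log2 fold change (knockout over wild type, edgeR) with its 95% interval for each of the 36 genes, by role. The 5 genes called higher are red, the 4 called lower blue and the 27 not called grey, and of the grey intervals only those of Sox7, Aplnr and Esm1 reach past 1 in size.

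Of the 6 transcription factors 2 fell and none rose, 1 of the fallen from the ETS family. The called share was 33.3%, beside 36% of all genes tested. Erg, an ETS factor of endothelium, was at 6.46, 6.65 and 8.34 CPM in the wild-type group and 5.73, 6.16 and 5.33 CPM in the knockout group. The groups did not overlap, but the difference did not pass (log2 fold change -0.32, 95% interval -0.68 to 0.04, adjusted p = 0.15). Fli1 (chromosome 9, 32422204 to 32542861, minus strand), its close relative that blood cells also use, was at 18.4, 15.0 and 17.5 CPM in the wild-type group and 7.94, 7.82 and 9.21 CPM in the knockout group. It fell 2.04-fold (log2 fold change -1.03, SE 0.13, adjusted p = 0.000681) and kept the call in all 18 alternatives.

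Tal1 (chromosome 4, 115056426 to 115071755, plus strand), a helix-loop-helix factor of blood and endothelial development, was at 5.36, 5.88 and 5.99 CPM in the wild-type group and 2.37, 3.002 and 3.10 CPM in the knockout group. It fell 2.04-fold (log2 fold change -1.03, SE 0.17, adjusted p = 0.00259), also in all 18 alternatives. The SoxF genes Sox7, Sox17 and Sox18, which act in endothelial and lymphatic specification, gave no call. Sox18, with the highest level per length of the 3, was at 15.7, 15.2 and 21.1 CPM in the wild-type group and 17.9, 29.1 and 21.3 CPM in the knockout group (log2 fold change 0.39, adjusted p = 0.154), and it was called higher without knockout replicate 1 (adjusted p = 0.0498). Sox7 ranged from 2.29 to 6.08 CPM and Sox17 from 3.28 to 6.91 CPM over the 6 libraries, with overlap (adjusted p = 0.309 and 0.472). Sox17 shares 16.9% of its exonic bases with another gene, and pairs from such bases are left uncounted.

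Lists for other cell types moved beside the genes that fell. Of 11 macrophage genes 10 were lower and none higher (the exception, Cd163, did not pass), with a summed level of 5205 to 6044 CPM in the wild-type libraries and 924 to 1154 CPM in the knockout libraries. Lyz2 fell by 3.46 and C1qa by 1.58 on the log2 scale. All 7 genes shared by leukocytes were lower (summed 695 to 741 CPM against 325 to 367 CPM). Their log2 fold changes ran from -1.53 to -0.67, with Arhgap30 falling by 1.29 and Coro1a by 1.09. The part of these cells in the results for Cd93, Fli1 and Tal1 was not tested.

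Further blood lineages were listed as well. Of 7 mast cell genes 3 were lower and 1 higher, with summed levels of 57.3 to 97.8 CPM in the wild-type group and 67.2 to 88.2 CPM in the knockout group. Fcer1a fell by 1.23, a call lost without wild-type replicate 2 or 3 or knockout replicate 3 (adjusted p = 0.0927, 0.068 and 0.0524), and Hdc, which neutrophils also express, rose by 1.03. Of 6 neutrophil genes 3 were higher and none lower (summed 228 to 276 CPM against 312 to 436 CPM), with Csf3r rising by 1.14 and Cxcr2 by 1.08. Of the 7 erythroid genes tested none passed in edgeR, with 1 at an unadjusted p under 0.05, and none passed in DESeq2. The list's sum ranged from 138 to 550 CPM in the wild-type group and 421 to 804 CPM in the knockout group. Klf1 was at 0.196 and 0.443 CPM (adjusted p = 0.0962), and Hba-a2, one of a pair of near-identical genes, ranged from 0.0267 to 9.83 CPM in the wild-type group and 0.258 to 59.7 CPM in the knockout group. The groups overlapped, and without wild-type replicate 2 Hba-a2 was called higher (adjusted p = 0.0229). Of the 6 platelet genes tested, out of 9 listed, 3 were lower and none higher, with sums of 51.3 to 75.7 CPM against 14.8 to 28.4 CPM that did not overlap, and with Pf4 falling by 1.95 and Ppbp by 0.99. Most of the platelet sum was Pf4, with 59.4 of 69.7 CPM in wild-type replicate 1 and 9.04 of 14.8 CPM in knockout replicate 1. Ppbp was not called without wild-type replicate 1 or 2 (adjusted p = 0.089 and 0.104), and Gp1bb was at 0 in every library.

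**Figure D3:**
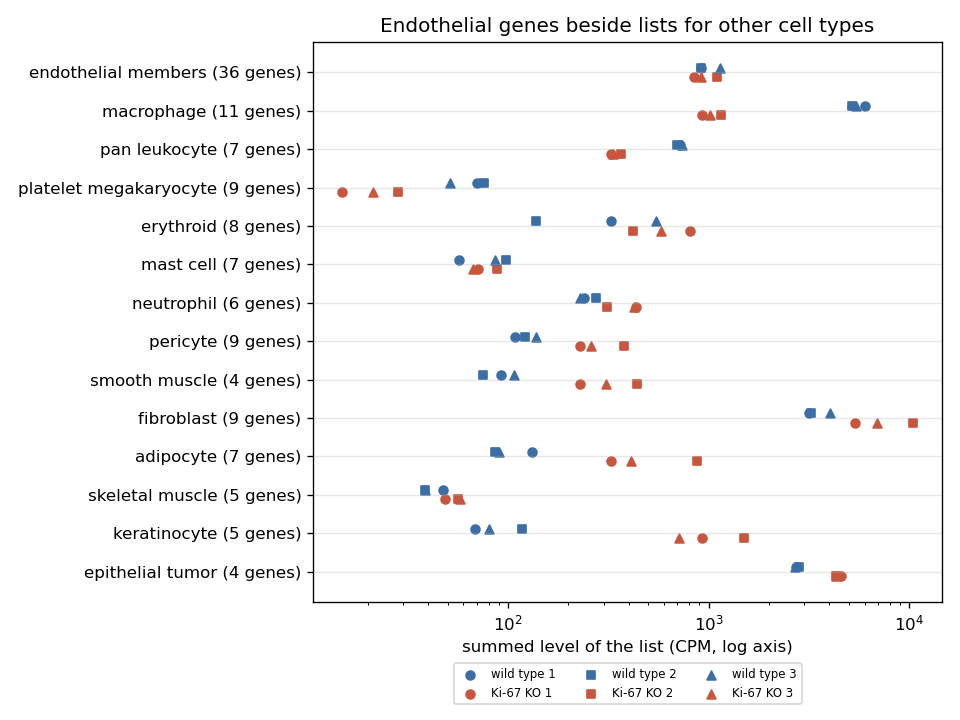
Summed level of the 36 endothelial genes and of 13 lists for other cell types (CPM on a log axis) in each library, wild type in blue and knockout in red. The endothelial sums, 845 to 1146 CPM, overlap between the groups, whereas the macrophage and leukocyte sums lie lower and the pericyte, smooth muscle, fibroblast, adipocyte and keratinocyte sums higher in each knockout library.

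Of the 9 receptors, enzymes and secreted factors 1 rose, Nos3, and none fell (11.1% called, beside 36% of all genes tested). Nos3 (chromosome 5, 24364810 to 24384474, plus strand), the endothelial nitric oxide synthase, was at 4.36, 4.53 and 5.77 CPM in the wild-type group and 6.51, 13.3 and 7.87 CPM in the knockout group, without overlap and with knockout replicate 2 far above the other libraries. It rose 1.88-fold (log2 fold change 0.91, SE 0.27, adjusted p = 0.0275). Dropping wild-type replicate 1, 2 or 3 ended the call (adjusted p = 0.121, 0.105 and 0.0518), as did dropping knockout replicate 3 (adjusted p = 0.0512), and with the unmapped share as a covariate the log2 fold change was 0.46 (adjusted p = 0.261). Over 32.3% of its exonic bases Nos3 overlaps exons of Atg9b or a second gene, and pairs there were left uncounted.

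Eng, the endoglin co-receptor for BMP ligands, was at 155, 151 and 191 CPM in the wild-type group and 114, 189 and 142 CPM in the knockout group (log2 fold change -0.16, adjusted p = 0.502). Without knockout replicate 2 it was called lower (log2 fold change -0.42, adjusted p = 0.0312), so that library decided whether the groups overlapped. S1pr1, the receptor for sphingosine-1-phosphate that stabilises junctions, was at 23.9, 20.8 and 27.7 CPM in the wild-type group and 18.1, 20.5 and 18.0 CPM in the knockout group, with no overlap but no call (log2 fold change -0.35, adjusted p = 0.064). S1pr1 was called lower in 5 of 18 alternatives, among them the fit without knockout replicate 2 (adjusted p = 0.0232). Aplnr, the receptor of the peptide apelin, was at 15.4, 14.4 and 19.3 CPM in the wild-type group and 19.4, 32.0 and 21.0 CPM in the knockout group. It missed the threshold (log2 fold change 0.56, adjusted p = 0.0593). Aplnr was called higher in 7 of 18 alternatives, among them DESeq2 (adjusted p = 0.0285) and the fit without knockout replicate 1 (adjusted p = 0.0246).

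Apln, the ligand of that receptor and a gene of sprouting tip cells, lay between 83.0 and 110.2 CPM in all libraries, with overlap (log2 fold change -0.09, 95% interval -0.37 to 0.18). Esm1, a secreted proteoglycan that also marks tip cells, was at 14.3, 12.4 and 14.1 CPM in the wild-type group and 15.5, 7.23 and 7.49 CPM in the knockout group. Knockout replicate 1 thus lay above all wild-type libraries and the other knockout libraries below them, and without it Esm1 was called lower (log2 fold change -0.90, adjusted p = 0.00107) where with all libraries it was not (adjusted p = 0.257). Ptprb, a phosphatase that restrains Tek and Cdh5 signalling, lay between 15.1 and 20.4 CPM, and Robo4, a receptor that steadies vessels, between 10.0 and 18.1 CPM (adjusted p = 0.814 and 0.825). Egfl7, a secreted factor whose gene hosts Mir126a, was at 20.2 ± 3.30 CPM on average in the wild-type group and at 26.9 ± 4.56 CPM in the knockout group (SD, 3 libraries each, adjusted p = 0.0758). Its groups did not overlap, and 11.2% of its exonic bases are shared with other genes. Egfl7 was called higher in 4 of 18 alternatives, namely library totals alone, the stricter filter, the first stranded counts and a covariate for the share outside exons (lowest adjusted p = 0.0238).

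None of the 5 intracellular signalling genes was called in edgeR, beside 36% of all genes tested, and none was called in DESeq2. In edgeR 1 had an unadjusted p under 0.05. Rhoj lay between 24.7 and 35.9 CPM over the 6 libraries. Arhgef15 was at 13.3, 12.5 and 15.0 CPM in the wild-type group and 15.8, 20.3 and 15.6 CPM in the knockout group, without overlap (log2 fold change 0.34, adjusted p = 0.0898). It was called higher in 4 of 18 alternatives, with library totals alone, the stricter filter, the first stranded counts or a covariate for pairs outside exons (lowest adjusted p = 0.0272). Rasip1, which acts in vessel lumen formation, was at 6.87 CPM in knockout replicate 2 and between 3.70 and 4.36 CPM elsewhere, with 42.9% of its exonic bases shared with other genes. She, an adaptor protein gene, and Myct1 had log2 fold changes of -0.20 and 0.37 (adjusted p = 0.428 and 0.176).

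The 3 genes tied to particular vessel beds or stores were not called either, in edgeR (0 at an unadjusted p under 0.05) or in DESeq2. Over all genes tested 36% were called in edgeR. Plvap, which builds the diaphragms of fenestrated and tumor vessels, was at 61.9, 63.0 and 86.2 CPM in the wild-type group and 69.9, 107 and 95.7 CPM in the knockout group (log2 fold change 0.37, 95% interval -0.04 to 0.78, adjusted p = 0.141), and it was called higher without knockout replicate 1 (adjusted p = 0.0238). Vwf, the clotting factor stored in endothelial granules, was at 15.6, 23.2 and 22.05 CPM in the wild-type group and 15.5, 22.4 and 19.4 CPM in the knockout group (adjusted p = 0.732). Gpihbp1, which carries lipoprotein lipase to the lumen of capillaries, lay between 14.0 and 19.8 CPM (adjusted p = 0.416).

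The 3 lymphatic genes were the one group in which each member was called, beside 36% of all genes tested. They did not share a direction. Prox1 (chromosome 1, 190118035 to 190170714, minus strand) was at 0.359, 0.636 and 0.241 CPM in the wild-type group and 1.76, 0.632 and 1.55 CPM in the knockout group, from 46 and 106 counts in all. Knockout replicate 2 lay inside the wild-type range. It rose by 1.67 on the log2 scale (SE 0.50, adjusted p = 0.0296), and the call was lost without wild-type replicate 1 or 3 (adjusted p = 0.106 and 0.127) or knockout replicate 1 or 3 (adjusted p = 0.0789 and 0.0867). With a covariate for pairs outside exons the log2 fold change of Prox1 was 0.99 and was not called.

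Mmrn1 (chromosome 6, 60924976 to 60989378, plus strand), the multimerin of lymphatic endothelium and platelets, was at 0.635, 0.874 and 0.722 CPM in the wild-type group and 1.76, 1.46 and 1.55 CPM in the knockout group, with no overlap. It rose 2.13-fold (log2 fold change 1.09, SE 0.27, adjusted p = 0.0142) on 83 and 127 counts, and was not called without wild-type replicate 1 or 3 (adjusted p = 0.0804 and 0.0743). Lyve1 (chromosome 7, 110850607 to 110863239, minus strand), a hyaluronan receptor of lymphatic vessels and of some macrophages, went the other way, from 24.4, 39.0 and 21.6 CPM to 12.4, 17.9 and 9.42 CPM. It fell 2.13-fold (log2 fold change -1.09, SE 0.28, adjusted p = 0.0153), and it missed the threshold when wild-type replicate 2 was dropped (adjusted p = 0.0567) and when knockout replicate 3 was (adjusted p = 0.0588). It also missed it with a covariate for the unmapped share (adjusted p = 0.0518) or for the share outside exons (adjusted p = 0.0963). Per kilobase of exon Lyve1 stood at 9.70 ± 3.19 CPM in wild-type tumors, beside 0.0491 ± 0.0242 for Prox1 and 0.127 ± 0.0206 for Mmrn1 (SD, n = 3 each). Between the genotypes 10 of 11 macrophage genes fell as Lyve1 did. Within the wild-type group the summed macrophage level was lowest in replicate 2 (5205 CPM), where Lyve1 was highest. Most of that sum was Lyz2, at 3937, 3193 and 3353 CPM in the 3 wild-type libraries. Of the macrophage genes, Mrc1, Cd163 and Adgre1 were highest in wild-type replicate 2 too. Within the knockout group replicate 2 was the highest for both Lyve1 and the macrophage sum (924, 1154 and 1016 CPM). The part of macrophages in the result for Lyve1 was not tested.

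On the same scale of level per exon length, Eng (41.0 ± 5.41 CPM per kilobase), Plvap (35.4 ± 6.91) and Apln (31.2 ± 3.32) led the list in wild-type tumors (SD, n = 3 each). In knockout tumors Plvap (45.7 ± 9.55) stood before Eng (36.7 ± 9.27). The SDs of these neighbours overlapped, while within libraries Eng was the higher of the pair in 3 of 3 wild-type libraries and Plvap in 3 of 3 knockout libraries, an order that was not tested. Cdh5 followed in the fourth place in both, at 17.5 ± 3.13 and 16.3 ± 3.18. Prox1 and Mmrn1 came last in both. Cd93 went from place 5 in wild-type to place 10 in knockout tumors, Lyve1 from 9 to 18 and Fli1 from 16 to 23, while Aplnr went from 17 to 11 and Nos3 from 31 to 24. The exon length used joins all annotated isoforms of a gene, which lowers the value of genes with many unused exons.

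**Figure D4:**
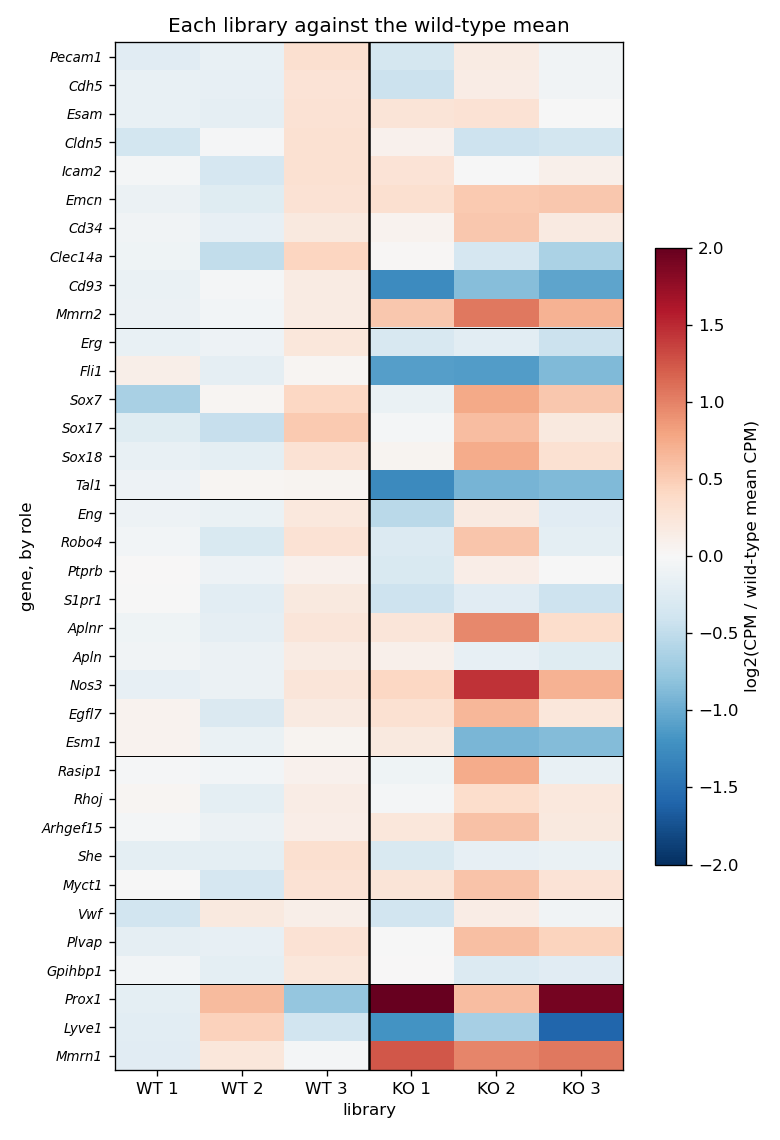
Log2 ratio of each library's CPM to the wild-type mean for the 36 genes (rows, by role) in 3 wild-type (WT) and 3 knockout (KO) libraries (columns). Wild-type replicate 3 and knockout replicate 2 are the redder columns of their groups for most genes, and Cd93, Fli1, Tal1 and Lyve1 are blue in each knockout column.

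The endothelial genes moved together from library to library within a genotype. Wild-type replicate 3 was the highest of its group for 30 of the 36 genes (83.3%), where the share over all genes tested was 32.6%. Knockout replicate 2 was the highest of its group for 24 of the 36 (66.7%), where the share over all genes was 42.7%. The levels of 6 endothelial genes, Pecam1, Cdh5, Erg, Cldn5, Emcn and Esam, were summed in each library. The sum was 197, 203 and 276 CPM in the wild-type group and 198, 251 and 220.4 CPM in the knockout group. Those sums overlapped, with means of 225 CPM ± 44.1 and 223 CPM ± 26.8 (SD, n = 3 each).

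Each gene was therefore also set against that sum in its own library, as a description without a test. The sum holds Emcn, itself called higher, and Pecam1, which leukocytes and platelets also carry. For Plvap the ratio was 31.4%, 31.1% and 31.2% in wild-type and 35.4%, 42.6% and 43.4% in knockout libraries. Its spread within the wild-type group nearly vanished and the groups came apart. That was not so for every gene. Relative to the mean, the wild-type spread widened for Fli1, from 17.0 ± 1.75 CPM to 7.69% ± 1.51. It also widened for Lyve1 (28.3 ± 9.31 CPM and 13.1% ± 5.74) and Ptprb (18.6 ± 1.17 CPM and 8.39% ± 1.20) (SD, n = 3 each). Sox18 stood at 7.95%, 7.49% and 7.66% against 9.07%, 11.6% and 9.68%. Mmrn2 stood at 4.52%, 4.62% and 3.95% against 7.16%, 8.06% and 7.14%, and Nos3 at 2.21%, 2.24% and 2.09% against 3.29%, 5.30% and 3.57%. Emcn, set against the other 5 genes, was at 10.5%, 9.30% and 9.90% against 14.7%, 13.1% and 15.5%.

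Lower ratios with no overlap were found for 7 genes. Cd93 was at 44.6%, 46.1% and 38.8% of the sum in wild-type and 20.4%, 21.1% and 21.0% in knockout libraries. Fli1, Tal1 and Lyve1 were likewise lower, and so were Erg (3.39%, 3.39% and 3.11% against 2.98%, 2.52% and 2.48%, set against the other 5), S1pr1 and She. Pecam1 overlapped, at 56.3%, 58.2% and 59.8% against 49.0%, 58.9% and 55.6% of the other 5. In all the ratios of the genotypes stayed clear of each other in 17 of the 36 genes, 10 higher and 7 lower, where the share over all genes set against the same sum was 33.0%. The sum is made of members and removes variation they share, so the 2 shares are not measured on equal terms.

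**Figure D5:**
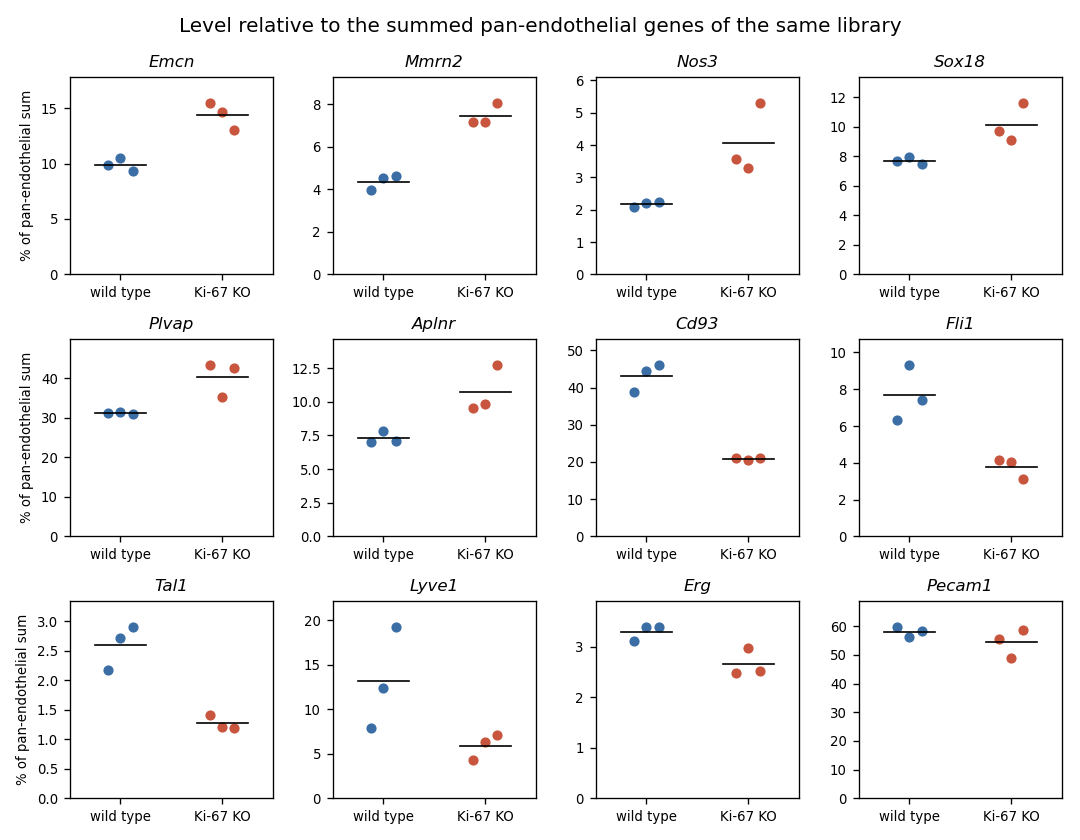
Level of 12 endothelial genes as a percentage of the summed CPM of Pecam1, Cdh5, Erg, Cldn5, Emcn and Esam in the same library (the gene itself left out of the sum), with each library as a point and the group mean as a line. Plvap lies between 31.1% and 31.4% in wild type and between 35.4% and 43.4% in knockout, Cd93 falls to 20.4% to 21.1%, and Pecam1 overlaps.

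Knockout replicate 2, the highest of its group for most endothelial genes, was also the highest for several stromal lists. The adipocyte sum was 325, 879 and 411 CPM in knockout replicates 1, 2 and 3 and 86.2 to 132 CPM in wild-type libraries, and all 7 genes rose, with Lep rising by 2.74 and Cfd by 2.66. The fibroblast sum was 5352, 10507 and 6934 CPM against 3181 to 4020 CPM, with 8 of 9 genes higher (Col1a2 by 1.18) and Pdgfra falling by 0.68. For the pericytes that wrap small vessels, 5 of 9 genes rose and none fell (229, 381 and 260 CPM against 108 to 138 CPM), with Notch3 rising by 2.59 and Cspg4 by 2.05. All 4 smooth muscle genes rose, Cnn1 by 2.02 and Acta2 by 1.83 (229, 438 and 308 CPM against 75.4 to 107 CPM). The keratinocyte list was higher for 5 of 5 (Krt14 by 4.29, Dsg1a by 2.39) and the skeletal muscle list for 4 of 5 (Acta1 by 1.19, Ckm by 1.52). Of the epithelial genes, 3 of 4 rose, among them Epcam by 2.94 and Cdh1 by 2.02. The part of these tissues in the rises of Nos3, Mmrn2 and Emcn was not tested.

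Of 50 further endothelial genes outside the list of 36, 49 were tested (Etv2, a factor of the embryo's first endothelium, had 1 count in all), 12 rose and 14 fell. The called share was 53.1%, beside 36% of all genes tested and 25% of the 36. The 50, like the 36, were chosen with earlier results of these data known. These shares therefore describe the lists and not endothelial genes at large. Their median log2 fold change was 0.01. These 50 include genes that tumor and stromal cells use widely, such as Vcam1, Ephb4 and Cav1.

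Of the 12 further receptor genes none rose and 3 fell (Flt1, Nrp1 and Calcrl), while Kdr, Tie1, Tek and Flt4 were not called. The called share was 25%, beside 36% of all genes tested. Kdr, the chief VEGF receptor, was at 24.2 ± 5.33 CPM on average in the wild-type group and at 23.3 ± 4.11 CPM in the knockout group (SD, 3 libraries each; log2 fold change -0.05, 95% interval -0.47 to 0.36). Tie1 was at 26.8 and 27.1 CPM (log2 fold change 0.01, adjusted p = 0.95), and Tek, the angiopoietin receptor, at 6.31 and 8.27 CPM (log2 fold change 0.39, adjusted p = 0.102). Flt4, the VEGF receptor of lymphatic endothelium, was at 8.71 and 12.9 CPM (log2 fold change 0.56, adjusted p = 0.0551), and passed as higher when wild-type replicate 3 was dropped (adjusted p = 0.0433) and when knockout replicate 1 was (adjusted p = 0.0162). Flt1, a VEGF trap and receptor, averaged 92.8 ± 2.81 CPM in the wild-type group and 60.6 ± 3.03 CPM in the knockout group (SD, 3 libraries each) and fell by 0.61 on the log2 scale (SE 0.08, adjusted p = 0.000793).

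Of 11 arterial and tip cell genes 5 rose and 2 fell (63.6% called, beside 36% of all genes tested). Gja4, a gap junction gene of arterial endothelium, averaged 2.30 ± 0.453 CPM in the wild-type group and 6.44 ± 2.98 CPM in the knockout group (SD, 3 libraries each), a rise of 1.48 on the log2 scale (adjusted p = 0.0079). The arterial ligand gene Efnb2 rose by 0.42 (adjusted p = 0.00414), a call lost without wild-type replicate 3 (adjusted p = 0.0584), and Pdgfb, the ligand that recruits pericytes, rose by 1.57 (adjusted p = 0.000125). Hey1, a Notch target listed among 8 transcription genes, rose by 1.23, while Hhex and Nr2f2, the latter a factor of veins, fell by 1.06 and 0.54.

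Of 7 venous and activated-endothelium genes 3 rose and 3 fell (85.7% called, beside 36% of all genes tested). Ackr1, a chemokine receptor of venules, averaged 0.619 CPM in the wild-type group and 2.31 CPM in the knockout group, a rise of 1.89 on the log2 scale (adjusted p = 0.0102), and with the unmapped share as a covariate it was not called (log2 fold change 0.99, adjusted p = 0.107). Exons of other genes cover 25.7% of its exonic bases. Gja4 and Hey1 were not called with that covariate either (adjusted p = 0.0595 and 0.0504). Vcam1, an adhesion molecule that macrophages and stromal cells share, fell by 2.76 on the log2 scale. Of 7 further surface genes, listed apart from the venous genes, 1 rose and 3 fell (57.1% called, beside 36% of all genes tested). Among them the caveolar gene Cavin2 fell by 3.16. It averaged 64.0 ± 6.58 CPM in the wild-type group and 7.14 ± 1.48 CPM in the knockout group (SD, 3 libraries each). Vcam1 and Cavin2 both lay lower in each knockout library than in each wild-type library.

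Of 5 further lymphatic genes 2 rose, 1 fell and 2 were not called (60% called, beside 36% of all genes tested). Ccl21a, a chemokine of lymphatic vessels, averaged 1.52 ± 0.247 CPM in the wild-type group and 4.80 ± 1.504 CPM in the knockout group (SD, 3 libraries each), a rise of 1.65 on the log2 scale (adjusted p = 0.00195). It has near-identical copies in the mouse genome, and pairs that map to more than 1 of them were left uncounted. Itga9, an integrin of lymphatic valves that other cells also carry, fell by 1.08. Pdpn, which marks lymphatic endothelium and also fibroblasts, was at 23.7 and 17.3 CPM (log2 fold change -0.45, adjusted p = 0.0556), and was called lower without knockout replicate 2 (adjusted p = 0.00947).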

How the data were processed

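The 3 wild-type and 3 Ki-67 knockout RNA libraries from 4T1 tumors were sequenced as paired reads. The deposited values are raw read-pair counts per Ensembl gene, with no normalization, in the layout of STAR's gene counting. The submitters' processing notes name STAR 2.6.0c, FastQC, DESeq2 and the build GRCm38. The annotation release is not given in the sources used here. The unstranded counts were used, since the first stranded counts held 50.1% to 50.2% of stranded pairs. Pairs that were unmapped, mapped to several places or overlapped several genes are outside the gene counts. Symbols, coordinates and exon lengths came from GENCODE M21, which held 54079 of 54146 identifiers.

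Genes were filtered with filterByExpr, scaled by TMM and tested with the quasi-likelihood test of edgeR 4.0.16 in R 4.3.3, genotype alone in the model. Benjamini-Hochberg adjustment ran over all 19900 genes tested, with a threshold of 0.05, and every adjusted p is from this test unless DESeq2 is named. SE is the log2 fold change over the root of F, and 95% intervals use the t distribution with edgeR's degrees of freedom. CPM values use TMM library sizes, and 3 counts equal 0.0781 to 0.136 CPM. Counting error and intervals cover these libraries only. The procedure was tested on simulated counts.

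The members and gene lists were chosen with earlier results of these data known. Values per library are given for Pecam1, Cdh5, Erg, Cldn5, Emcn, Esam and each called member. From the further endothelial genes the text names up to 6 called genes in each direction by smallest p, with Kdr, Tek, Tie1, Flt4 and Pdpn, and up to 2 genes from each list for other cells. Other genes named, and other members given by library, were chosen after their values were seen. The alternatives were DESeq2 1.42.0, other scalings, filters and counting columns, a robust fit, removal of the most abundant genes, leaving out each library, a replicate block, covariates for the unmapped share and the share outside exons, and a fit of libraries with under 40% unmapped pairs.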

Additional observations from a re-analysis of the deposited data

How the results depend on the processing

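No result changed from a call in one direction to a call in the other. Of 646 log2 fold changes of the 36 genes under 18 alternatives, 589 kept their side of the threshold, 29 lost it and 28 gained it. Among the 27 members not called, 18 changed the sign of their log2 fold change in at least 1 alternative that did not call them either. Genes outside the 36 gave 771 values, of which 735 kept their side, 17 lost it and 19 gained it. The 5 endothelial genes called higher became 8 with library totals alone, 3 with only libraries of under 40% unmapped pairs and 3 with the unmapped share as a covariate. Leaving out 1 library gave 0 to 7. The 4 called lower became 8 with only libraries of under 40% unmapped pairs (1 knockout library, assumed to vary like the wild type; Cdh5, Eng, Ptprb and S1pr1 were added), and 3 to 6 when 1 library was left out. Of the further endothelial genes, the 12 higher became 7 with the unmapped share as a covariate and 8 to 16 without 1 library. The 14 lower became 8 in the fit that included each library's share outside exons, and 9 to 15 without 1 library. The 7158 calls over all genes became 4078 to 9301 without 1 library. The median log2 fold change of the 36 genes lay between -0.12 (without knockout replicate 2) and 0.21. The causes were not tested. The labels do not say whether the replicate numbers pair libraries. Deviations from the group means correlated at 0.05, -0.21 and -0.24 between same-numbered libraries. Between differently numbered libraries the values ran from -0.10 to 0.25. With 3 libraries per group these values cannot decide whether libraries were paired. A replicate block gave 4 higher and 4 lower members, 12 and 14 further genes and 6662 calls in all, with Prox1 at an adjusted p of 0.0636. Depth limits Prox1 and Mmrn1, which rest on 46 and 83 wild-type counts.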
